A study of Mus musculus with 11 samples.

Results

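Transcripts bound to tagged endothelial ribosomes were compared between GL261 gliomas and healthy brain in mice that lack Eltd1. The comparison uses 5 of the 11 libraries of the series, chosen by label: 2 libraries of endothelial cells from tumours in Eltd1-/- mice and 3 libraries of endothelial cells from the brains of Eltd1-/- mice. All were adult mice of the C57BL/6 strain. Every animal also carried eGFP-L10a, a ribosomal protein of the large subunit fused to a green fluorescent protein, driven by the promoter of VE-cadherin, which is an endothelial gene. GL261 is a mouse glioma line that was injected into the brain, and the tumours were dissected before ribosomes were captured with antibodies against the tag. The brain animals are described as healthy, with no injection stated. By protocol 3 mice per group went into sequencing, and for knockout tumours 2 libraries are analysed here. The other 6 libraries, 3 tumours and 3 brains of wild type C57BL/6 mice with the same tagged ribosome, gave the spread estimate and a side by side reading. Of the 45806 genes in the files, 14420 had a value of at least 1 FPKM in 2 or more of the 5 knockout libraries and were tested. FPKM divides a gene's fragments by transcript length and by library size, so levels of different genes can be set against each other.

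Brain endothelium forms the blood-brain barrier. Its cells are sealed by tight junctions, carry transporters that feed the brain and pump out drugs, and keep this state under Wnt/beta-catenin signals from the surrounding tissue. Vessels of gliomas often leak, sprout and divide, and can display molecules that T cells and other leukocytes read. Eltd1, now named Adgrl4, belongs to the adhesion family of G protein-coupled receptors and is known for its high level in tumour vessels.

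Adgrl4 lies on chromosome 3 from 151437882 to 151545081 in GRCm38.p6 and was still read in the knockout libraries. Its level was 11.5 and 5.82 FPKM in tumour and 21.6, 23.6 and 22.2 in brain, so both tumours lay below all 3 brains. In wild type mice it was 45.0, 192 and 27.4 FPKM in tumour and 166, 82.7 and 153 in brain. Each knockout library was thus below each wild type library of its tissue, and the deposited gene value does not show which exons the remaining fragments cover. The tumour minus brain difference in knockouts was -1.35 on the log2(FPKM + 1) scale (SE 0.69, adjusted p = 0.234). Knockout minus wild type was -2.78 in tumour (SE 0.69, adjusted p = 0.760) and -2.46 in brain (SE 0.62, adjusted p = 1), and none of these passed the threshold of 0.05.

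The 5 libraries summed to between 499540 and 570972 FPKM. Read counts are not part of the files, so the depth behind each value is unknown. Along the first principal component of the tested genes, with 63.0% of their variance, both tumours lay on one side and all 3 brains on the other. The 3 brains lay apart from each other on the second component, with 16.1%. The labels give no batch. Ddx3y, a gene of the Y chromosome, was above 0 in both tumours and in brain replicates 1 and 2, and 0 in brain replicate 3, and the labels give no sex, so counts are also given without each library. Sqstm1, an autophagy receptor, was high in tumour and differed widely between the 2 tumours. It had 23802 and 5631 FPKM in tumour and 742, 845 and 958 in brain (log2 change 3.78, SE 0.48, adjusted p = 0.00123).

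The captured RNA held transcripts of other cells, and their amounts differed with tissue. The 29 endothelial identity genes summed to 1085 to 1189 FPKM in tumour and 2242 to 2958 in brain, and all 29 were tested. The 15 neuron markers summed to 1077 to 1789.5 FPKM in tumour and 5747 to 7270.5 in brain, so they exceeded the endothelial sum in each brain library. Oligodendrocyte markers summed to 449 to 491 FPKM in tumour and 1009 to 1345 in brain, and astrocyte markers to 439 to 599.9 FPKM in tumour and 1032 to 1256 in brain. The 19 markers of microglia and macrophages went the other way, with 770.1 to 856 FPKM in tumour and 51.1 to 71.6 in brain. The 12 markers of neural progenitors and glioma cells summed to 438 to 532 FPKM in tumour and 241 to 326 in brain. Mural markers were low, at 79.7 to 82.2 FPKM in tumour and 26.4 to 37.7 in brain, and the smooth muscle gene Myh11 stayed below 1 FPKM in each knockout library. Fibroblast markers summed to 63.5 to 64.3 FPKM in tumour and 38.4 to 58.9 in brain, lymphocyte markers to 25.3 to 33.0 FPKM in tumour and 30.9 to 35.5 in brain, erythrocyte markers to 0.630 to 3.23 FPKM in tumour and 4.91 to 44.2 in brain, and choroid plexus and ependyma markers to 4.49 to 13.4 FPKM in tumour and 91.6 to 153 in brain. Of the choroid plexus and ependyma sums in brain, Ttr alone gave 146, 106 and 81.5 FPKM. The median log2 change of that list was -0.32, with members from -6.77 to 1.94. The fibroblast list had a median of -0.40, with members from -1.28 to 4.66, so these sums rest on few genes. Cd3e and Cd3d of T cells were listed at 0 in all 5. In such captured libraries, fewer cells of a type, less RNA per cell and less carry-over in the capture cannot be told apart.

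**Figure D1:**
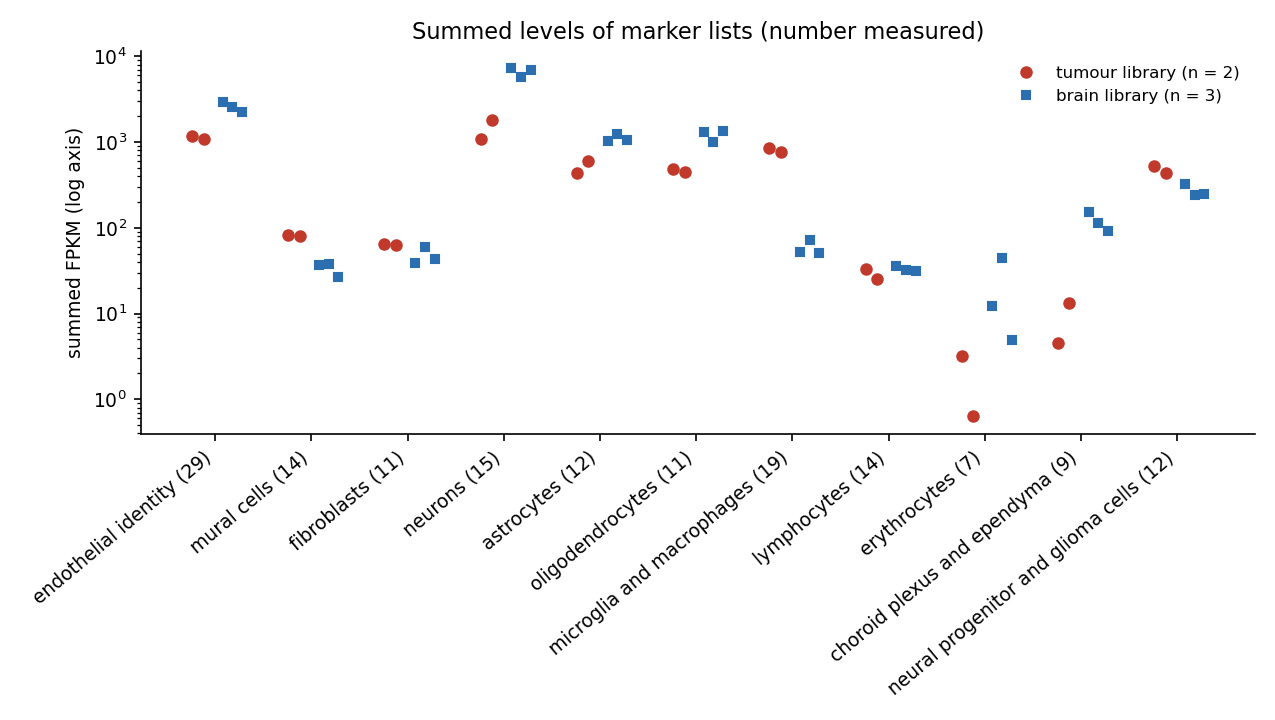
Summed FPKM of marker lists on a log axis, one point per knockout library (circles, 2 tumours; squares, 3 brains), with the number of measured genes in brackets. Endothelial, neuron, astrocyte and oligodendrocyte sums are lower in both tumours than in each brain, whereas microglia and macrophage sums are higher.

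Single markers followed the sums only in part. Gpnmb, a glycoprotein of macrophages and of some tumour cells, rose from 0.213, 0.0828 and 0.982 FPKM in brain to 364 and 288 in tumour (log2 change 7.88, SE 0.60, adjusted p = 0.000263). C1qa and Lyz2, made by microglia and other myeloid cells, also rose, with C1qa at 134 and 102 FPKM in tumour and 5.48, 15.6 and 4.94 in brain and Lyz2 at 124 and 128 FPKM in tumour and 0.900, 1.92 and 6.45 in brain. With Fcer1g and C1qc they made 5 of 18 tested microglia and macrophage markers, against 5.57% of all tested genes that rose. The pan-leukocyte gene Ptprc had 4.96 and 5.39 FPKM in tumour and 0.868, 0.845 and 0 in brain and did not pass (adjusted p = 0.0818). P2ry12, which defines resting microglia, had 5.96 and 1.99 FPKM in tumour and 4.23, 4.13 and 2.45 in brain. Of the neural progenitor and glioma markers 5 of 12 rose, among them Sox10, at 158 and 98.2 FPKM in tumour and 13.3, 4.37 and 14.2 in brain, and Olig2, at 69.5 and 62.4 FPKM in tumour and 1.46, 4.57 and 6.96 in brain, transcription factors of the oligodendrocyte lineage. Without each library (tumour replicates 1 and 2, then brain replicates 1, 2 and 3) 1, 2, 3, 4 and 3 microglia and macrophage markers and 1, 3, 3, 3 and 4 neural progenitor and glioma markers rose. Lck, a kinase of T cells, was the one lymphocyte marker that rose (24.5 and 9.04 FPKM in tumour and 0 in all 3 brain libraries).

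Sums of neural markers were lower in tumour, though few members passed. Of the neuron list, 1 of 15 fell, against 2.82% of all tested genes: Syt1, the calcium sensor of synaptic vesicles, went from 532, 413 and 382 FPKM in brain to 35.8 and 89.3 in tumour (log2 change -2.93, SE 0.77, adjusted p = 0.0382). Snap25 stood at 252 and 631 FPKM in tumour and 3701, 2457 and 3542 in brain with an adjusted p of 0.145. In the fit to the 5 knockout libraries alone 13 neuron markers passed. Of 11 oligodendrocyte markers 3 fell, among them the myelin genes Mobp and Mbp, with Mbp at 28.3 and 40.9 FPKM in tumour and 127, 76.6 and 126 in brain, and so did the astrocyte genes Ntsr2 and Slc4a4. Gfap, the intermediate filament of astrocytes, had 67.7 and 70.4 FPKM in tumour and 12.7, 38.4 and 33.3 in brain and did not pass (adjusted p = 0.123). With any 1 library left out 0 neuron and 0 astrocyte markers passed, and the oligodendrocyte markers that fell numbered 0, 0, 0, 2 and 0 in the order just given.

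Of the 14420 tested genes, 1210 (8.39%) differed between knockout tumour and brain at an adjusted p under 0.05: 803 (5.57%) were higher in tumour and 407 (2.82%) were lower. All 1210 had no overlap between the 2 tumour and 3 brain libraries, a pattern that 23% of tested genes showed upward and 30.7% downward. The median change of all tested genes was -0.19 (log2). Counts of called members in the lists below are to be read against the shares of 5.57% higher and 2.82% lower. The count was 195 without tumour replicate 1, 280 without tumour replicate 2, and 630, 637 and 638 without brain replicates 1, 2 and 3. Fitted to the 5 knockout libraries alone, 3258 genes passed, of which 1194 were among the 1210. The balance of directions turned with the spread estimate: 1429 rose and 1829 fell in that fit, 1923 and 2423 with library weights, and 1263 and 1645 with wild type tumours 2 and 3 left out of the spread. Of the calls, 140 of those higher were listed at 0 in all 3 brains, and 29 of those lower were listed at 0 in both tumours. These genes met the filter of 1 FPKM through 1 tissue alone. A listed 0 can be a failed estimate, so the text gives values and no fold for such genes.

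**Figure D2:**
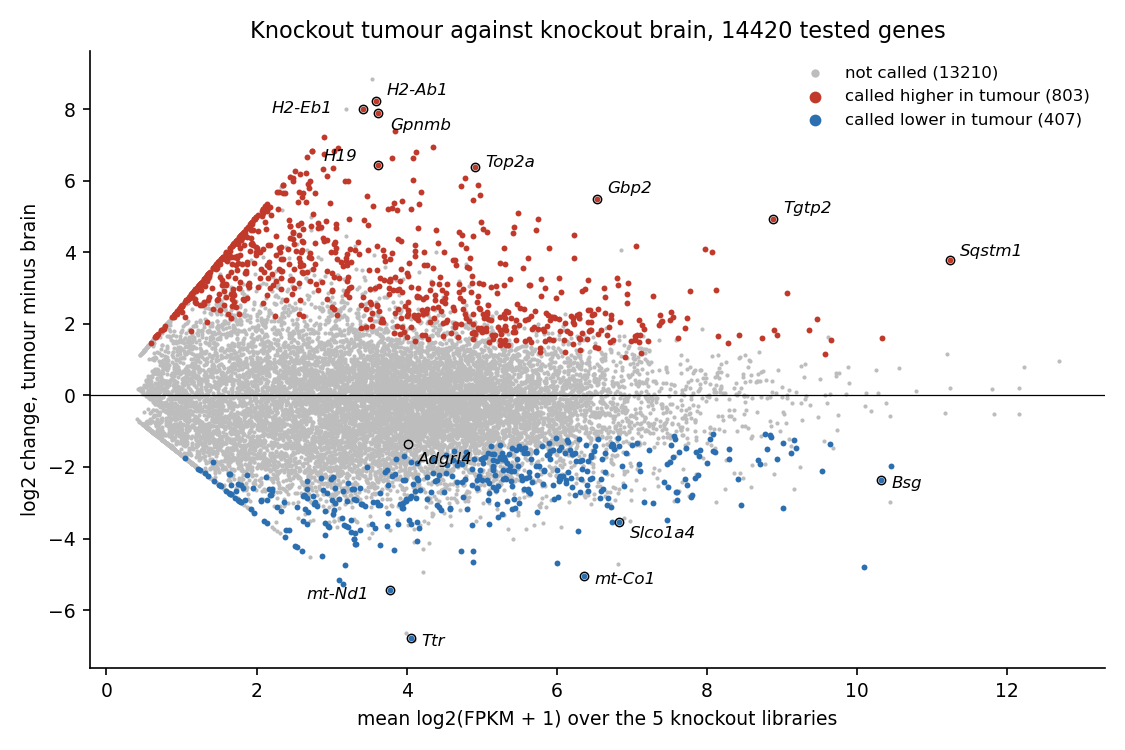
Log2 change of each tested gene, knockout tumour minus knockout brain, against its mean log2(FPKM + 1) over the 5 libraries. Red points are the 803 genes called higher, blue points the 407 called lower and grey points the rest, and the straight edges at the left are genes listed at 0 in one tissue.

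Of the 15 largest rises, with predicted and clone-named genes passed over, 3 were MHC class II genes and 5 were histones. H2-Ab1, a chain of MHC class II, led with 395 and 343 FPKM in tumour and 0, 0.145 and 0.633 in brain (log2 change 8.23, SE 0.73), followed by H2-Eb1 of the same complex. Moxd1, a monooxygenase-like protein, went from 0.199, 5.71 and 2.22 FPKM in brain to 402 and 330.0 in tumour, and Emilin1, a glycoprotein of elastic fibres, from 0, 0 and 0.924 to 211 and 107. Prph, a neuronal intermediate filament, rose from 5.13, 0.188 and 0.511 to 207 and 235. H19, an imprinted long non-coding RNA, stood at 242 and 128 FPKM in tumour and 0.116, 5.55 and 0.194 in brain. The other named genes among the 15 largest rises were Gpnmb, Cd74, Hist1h2af, Hist1h1a, Hist1h2bn, Hist1h2bm, Hist1h2bl, Cdc20 and Top2a, with changes from 6.38 to 7.88.

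Ttr, transthyretin, which is made by choroid plexus, fell most among the called genes: 0 in both tumour libraries and 146, 106 and 81.5 FPKM in brain. Its wild type tumours varied, with 19.7, 0 and 63.8 FPKM. Slc17a6, the vesicular glutamate transporter of neurons, went from 28.5, 37.5 and 32.7 in brain to 0 and 0.567 in tumour. Cacnb4, a calcium channel subunit, and Hapln2, a link protein of nodes of Ranvier, fell as well, with Cacnb4 at 2.72 and 5.30 FPKM in tumour and 208, 99.7 and 44.5 in brain. Samd12 had 0 in both tumour libraries and 55.6, 26.7 and 27.9 FPKM in brain. Igkv3-12, an immunoglobulin light chain segment, had 0 in both tumour libraries and 21.7, 13.7 and 17.4 FPKM in brain, while all 3 wild type brains were at 0. The remaining named falls were mt-Nd1, mt-Nd2, mt-Co1, Rian, Meg3, Cxx1c, Arhgdig, St8sia3os and Chchd6. Neuron markers moved with these falls, as given above, and their part in them was not tested.

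Many interferon-response genes, which cells switch on to resist infection and to alert T cells, rose. Of 44 listed genes, all tested, 26 were higher in tumour and 0 lower, with a median change of 3.07. The microglia and macrophage sum was 13.97 times as high in tumour as in brain and moved with this rise, and its part in it was not tested. Gpnmb alone gave 364 and 288 FPKM of the tumour sums of 856 and 770.1. Guanylate-binding proteins, GTPases that interferon-gamma induces against intracellular microbes, led: Gbp2 stood at 858 and 958 FPKM in tumour and 17.3, 14.03 and 28.8 in brain (log2 change 5.49, SE 0.42, adjusted p = 0.000263). Gbp5 had 506 and 344 FPKM in tumour and 9.82, 12.9 and 15.7 in brain, and Gbp7 had 142 and 164 FPKM in tumour and 9.66, 6.58 and 7.34 in brain. These values leave a wide gap between the tissues, with each tumour library more than any brain library. The immunity-related GTPases Iigp1 and Tgtp2 rose too, Iigp1 from 15.3, 11.8 and 7.69 to 352 and 224 FPKM and Tgtp2 from 199.99, 51.6 and 163 to 4075 and 3327. Tgtp2 has a near-identical copy, Tgtp1, which had 108 and 82.6 FPKM in tumour and 45.3, 18.7 and 6.60 in brain and an adjusted p of 0.315, so the division of fragments between them is uncertain.

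Irf1, a transcription factor that interferon induces, had 495 and 422 FPKM in tumour and 64.6, 26.4 and 74.5 in brain, and Socs1, a feedback inhibitor of the kinases, had 10.3 and 14.1 FPKM in tumour and 0 in all 3 brain libraries. Both rose, with adjusted p = 0.0110 and 0.00303. Ifit1, an RNA-binding effector, rose as well, whereas Isg15, a ubiquitin-like modifier, had 52.0 and 40.2 FPKM in tumour and 13.8, 14.9 and 8.30 in brain and an adjusted p of 0.324. The receptor chains Ifngr1 (log2 change 0.44), Ifngr2 (-0.31), Ifnar1 (-0.52) and Ifnar2 (-0.65) and the kinases Jak1 (0.11) and Jak2 (0.35) did not pass. With tumour replicate 1, tumour replicate 2 or brain replicates 1 to 3 left out, 14, 15, 21, 23 and 22 interferon genes rose.

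The region upstream of these genes was read for the interferon-stimulated response element, searched on both strands as GAAA, any 2 bases and GAAA, in the 250 bases before the gene start (RefSeq, GRCm38.p6). Of the 26 members that rose, 20 had an entry and 13 of those held a match (65%), against 2.98% of all 32851 windows. Of the MHC class I members that rose, described next, 11 had an entry and 1 held a match (9.09%). A second motif, TTC, any 3 bases and GAA, the interferon-gamma activated site, able to overlap the first, was chosen after values were seen and lay in 8 of the 20 (40%) and in 1 of the 11 (9.09%), against 7.02% of all windows. The 4 matching members with the smallest p are shown because their promoters can be read beside their values above, with the match in capitals. Gbp2 is at chr3:142620413-142620662, Gbp5 at chr3:142496684-142496933 and Gbp7 at chr3:142530086-142530335, all on the plus strand, and Tgtp2 at chr11:49064213-49064462 on the minus strand. Sequences run 5′ to 3′ along the gene.
Gbp2: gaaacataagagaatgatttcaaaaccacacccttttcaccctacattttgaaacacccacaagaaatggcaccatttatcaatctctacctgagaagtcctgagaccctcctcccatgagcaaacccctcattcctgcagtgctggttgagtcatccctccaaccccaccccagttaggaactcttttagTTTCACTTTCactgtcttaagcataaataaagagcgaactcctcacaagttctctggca
Gbp5: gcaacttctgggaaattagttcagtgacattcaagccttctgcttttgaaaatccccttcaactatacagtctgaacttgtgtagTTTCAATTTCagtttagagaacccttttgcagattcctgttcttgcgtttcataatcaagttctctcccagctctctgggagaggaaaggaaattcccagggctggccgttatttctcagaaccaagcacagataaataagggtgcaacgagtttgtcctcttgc
Gbp7: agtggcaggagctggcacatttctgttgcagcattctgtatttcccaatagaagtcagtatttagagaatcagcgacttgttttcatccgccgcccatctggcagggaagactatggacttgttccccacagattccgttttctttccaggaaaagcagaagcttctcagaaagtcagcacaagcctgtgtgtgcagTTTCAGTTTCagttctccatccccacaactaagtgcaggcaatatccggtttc
Tgtp2: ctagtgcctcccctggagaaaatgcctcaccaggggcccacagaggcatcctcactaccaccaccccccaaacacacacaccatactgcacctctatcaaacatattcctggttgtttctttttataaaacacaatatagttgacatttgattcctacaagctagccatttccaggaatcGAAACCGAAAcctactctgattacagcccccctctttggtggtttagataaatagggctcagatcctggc
The match begins 59 bases before the gene start in Gbp2, 165 in Gbp5, 53 in Gbp7 and 70 in Tgtp2. In the 3 Gbp genes the capitals are the reverse complement of the motif. A match is a run of letters and does not show binding. The interferon list was picked for its known response to interferon, and members that did not rise were not searched. These shares are thus no result about the libraries.

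Genes of MHC class I presentation, which shows peptides from inside the cell to CD8 T cells, rose in 13 of 20 cases, and 0 fell. All 20 were higher in both tumours than in each brain, a pattern of 23% of all tested genes, and their median change was 2.77. The immunoproteasome subunit Psmb8 went from 36.4, 71.2 and 32.7 FPKM to 507 and 374 (log2 change 3.28, SE 0.39, adjusted p = 0.000999), and Psmb9 and Psmb10 rose with it. Tap2, a subunit of the peptide pump of the endoplasmic reticulum, had 110.4 and 88.2 FPKM in tumour and 4.31, 4.40 and 7.14 in brain, and its partner Tap1 had 465 and 298 FPKM in tumour and 2.30, 26.9 and 13.0 in brain. Nlrc5, the transactivator of class I genes, rose from 0.0568, 0.267 and 2.71 to 33.5 and 40.9. The classical heavy chain H2-K1 stood at 475 and 515 FPKM in tumour and 64.5, 99.0 and 56.4 in brain (log2 change 2.78, SE 0.52, adjusted p = 0.00874), and H2-D1 at 314 and 311 FPKM in tumour and 39.2, 47.0 and 50.8 in brain. B2m, the light chain they share, had 416 and 432 FPKM in tumour and 194, 223 and 172 in brain and did not pass (adjusted p = 0.0885). The microglia and macrophage sum moved with this list as well, and its part was not tested. The H2 genes are near-identical in stretches, so their single values are uncertain. The count was 3, 3, 10, 11 and 11 with tumour replicates 1 and 2 and brain replicates 1, 2 and 3 left out in turn.

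MHC class II genes, which show peptides taken up from outside to CD4 T cells, rose in each of the 9 members tested, with a median of 4.73. The other 2 listed members, H2-Oa and H2-Ob, were below the filter on low values, with H2-Ob at 6.78 and 0 FPKM in the tumours. Members such as H2-Ab1 and Ciita, below 1 FPKM in each brain, met that filter through the 2 tumours alone. The share of 9 in 9 is thus partly set by the filter. With a pseudocount of 0.1 the median was 7.48. Cd74, the invariant chain, stood at 333 and 286 FPKM in tumour and 2.07, 0.431 and 0.471 in brain (log2 change 7.38, SE 0.67, adjusted p = 0.000410). H2-Aa, the partner chain of H2-Ab1, had 148 and 77.9 FPKM in tumour and 0, 0 and 4.07 in brain. Ciita, the master regulator of class II genes, had 17.0 and 18.6 FPKM in tumour and 0 in all 3 brain libraries. The peptide editors H2-DMa and H2-DMb1 went the same way, H2-DMa from 0, 0 and 1.66 to 25.6 and 34.2 FPKM. Ctss, the protease that trims Cd74, rose from 35.4, 13.2 and 12.3 to 439 and 246. Among the 9 tested members the tumours differed most, by ratio, in H2-DMb2, at 16.1 and 2.95 FPKM, which was listed at 0 in all 3 brains. The same sum moved with this rise, and its part in it was not tested. Counts with each library left out in the same order were 6, 7, 8, 8 and 8.

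Checkpoint ligands and chemokines that interferon induces also differed. Cd274, PD-L1, which restrains T cells, went from 3.36, 1.91 and 0.188 FPKM in brain to 21.3 and 20.4 in tumour (log2 change 3.14, SE 0.80, adjusted p = 0.0352), and Lgals9 and the tryptophan-degrading enzyme Ido1 rose too, with Ido1 at 45.9 and 27.8 FPKM in tumour and 4.65, 0 and 0.118 in brain. They were 3 of 9 tested members, and 0, 1, 2, 1 and 1 passed without each library in the above order. Cxcl10 and Cxcl9, which attract CXCR3-bearing T cells, were 0 in all 3 brains. In tumour Cxcl10 had 55.0 and 23.2 FPKM and Cxcl9 had 14.1 and 8.13. Without any 1 of the 5 libraries neither rise passed, while the fall of Cxcl12, given next, passed each time. Cxcl12, a chemokine that brain endothelium makes at rest, fell from 111, 94.8 and 102 to 8.44 and 13.7 (log2 change -3.13, SE 0.43, adjusted p = 0.00169). Ccl2 was listed at 0 in all 5 libraries, as were Cxcl2 and Ccl21a.

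Genes of a mixed list of the NF-kB pathway and inflammation rose in 4 of 20 cases, against 5.57% of all tested genes, and 0 fell. Nfkb2, a precursor subunit of the non-canonical arm, stood at 48.0 and 61.3 FPKM in tumour and 6.24, 8.18 and 7.43 in brain, and it rose. Stat3, a transducer of interleukin-6 type cytokines, had 193 and 211 FPKM in tumour and 43.5, 46.3 and 34.2 in brain. Socs3, its feedback inhibitor, had 46.1 and 46.0 FPKM in tumour and 7.90, 5.05 and 2.87 in brain. Il1b, a cytokine of activated myeloid cells, had 3.64 and 5.94 FPKM in tumour and 0 in all 3 brain libraries. The canonical subunits Rela (0.44) and Nfkb1 (0.45) did not pass, and neither did the inhibitor Nfkbia (-1.19). The counts without each library were 0, 0, 3, 3 and 3.

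Complement genes were read from a list added after values were seen, which is no independent evidence of direction. Of 19 tested, 9 rose and 2 fell. C4b, part of the classical pathway, had 189 and 197 FPKM in tumour and 1.59, 1.73 and 6.50 in brain, C3, the central component, had 41.0 and 35.3 FPKM in tumour and 1.09, 0.0302 and 0.488 in brain, and the proteases C1s1 and C1ra rose with them. Cd55, which restrains complement on host cells, was among those that fell, with 0 in both tumour libraries and 5.91, 3.09 and 2.82 FPKM in brain. C1qa and C1qc are also microglia and macrophage markers, whose sum, given above, was higher in tumour, and its part in these rises was not tested. Without each library 5, 5, 6, 8 and 6 rose and 0, 0, 0, 1 and 1 fell.

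**Figure D3:**
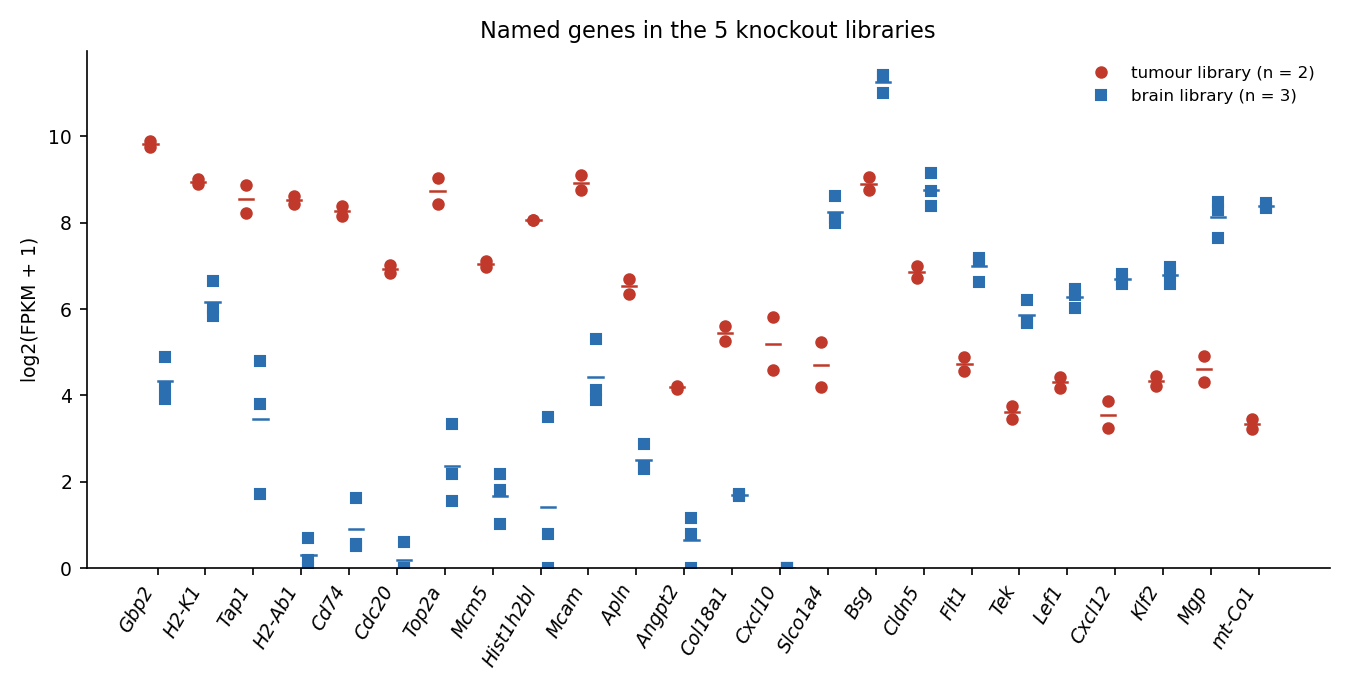
Log2(FPKM + 1) of 24 genes named in the text, one point per knockout library (red circles, 2 tumours; blue squares, 3 brains), with group means as short lines. In each gene shown the tumour points lie on one side of all brain points.

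Most genes of mitosis rose. Of 26 mitosis genes 20 rose, against 5.57% of all tested genes, and 0 fell, with a median of 4.55. All 26 were higher in both tumours than in each brain, a pattern of 23% of all tested genes. Cdc20, the activator of the anaphase-promoting complex, stood at 114 and 129.6 FPKM in tumour and 0, 0 and 0.513 in brain (log2 change 6.74, SE 0.56, adjusted p = 0.000289). Ccnb1, the cyclin of mitotic entry, had 76.6 and 88.7 FPKM in tumour and 0.219, 0 and 0.183 in brain, and Top2a, which untangles DNA, 348 and 522 FPKM in tumour and 3.54, 9.15 and 1.92 in brain. The motor Kif20a, the spindle protein Prc1 and the kinase Plk1 behaved alike, with changes of 5.91, 5.79 and 5.70. Mki67, the usual marker of cycling cells, had 11.8 and 19.2 FPKM in tumour and 0.834, 0.925 and 0.309 in brain. Aurkb, a kinase of chromosome segregation, had 31.6 and 22.3 FPKM in tumour and 0, 16.6 and 0.0983 in brain, with brain replicate 2 close to the tumours, and did not pass (adjusted p = 0.0907). In leave-one-out fits in the same order 13, 15, 19, 21 and 21 mitosis genes rose.

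Of 24 genes of DNA replication 15 rose and 0 fell. The helicase subunits Mcm2 to Mcm7 are in the list, and Mcm5 had 125 and 138 FPKM in tumour and 2.50, 3.56 and 1.05 in brain, Mcm7 130.0 and 179 FPKM in tumour and 17.0, 6.73 and 2.89 in brain and Mcm3 90.6 and 122 FPKM in tumour and 0, 4.83 and 2.40 in brain. Uhrf1, which keeps DNA methylation through replication, went from 1.501, 0 and 0.604 to 35.1 and 53.8 FPKM, and Pcna, the sliding clamp, from 19.5, 26.2 and 51.0 to 122 and 185. The cyclins of S phase entry were different: Ccne1 had 18.96 and 10.7 FPKM in tumour and 41.1, 10.1 and 25.1 in brain and Ccne2 0.370 and 10.5 FPKM in tumour and 9.14, 15.9 and 2.96 in brain, and their tissues overlapped. With each library left out in the same order the counts were 3, 3, 11, 11 and 13. Glioma cells and endothelial cells can both divide. The sum of neural progenitor and glioma markers was 1.78 times as high in tumour as in brain. Their median log2 change was 2.26, with members from -2.79 to 3.81, and 5 of 12 rose. Their part in the rise of division genes was not tested.

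Replication-dependent histone genes, made in S phase to package new DNA, rose in 21 of 54 tested cases and 1, Hist2h2be, fell. Hist1h2bl had 267 and 265 FPKM in tumour and 0, 0.720 and 10.3 in brain, Hist1h1a 110.0 and 116 FPKM in tumour and 0 in all 3 brain libraries, Hist1h2af 91.8 and 139.9 FPKM in tumour and 0 in all 3 brain libraries and Hist1h2bn 137 and 141 FPKM in tumour and 0, 0 and 0.856 in brain. Their copies are near-identical and short, so single values are uncertain. Brain replicate 1 listed 4 runs of expressed histone neighbours on chromosome 13 at 0, of 7, 5, 4 and 4 genes. Hist1h2af, Hist1h1a, Hist1h2bn, Hist1h2bm and Hist1h2bl all lie in these runs. The run of Hist1h2af, Hist1h3g, Hist1h2bh and Hist1h3f was at 0 in all 3 brain libraries. The part of these zeros in the histone rises was not tested. Without each library, in the same order, 6, 6, 12, 11 and 13 histone genes rose.

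Promoters of the mitosis members were searched for TTTGAA or TTCGAA, the cell cycle homology region of late cell cycle genes, on both strands. It lay in 8 of the 17 risen members with an entry (47.1%), against 17.1% of all windows. Cdc20 and Top2a are shown as the matching members with the smallest p, with matches in capitals. They lie at chr4:118437344-118437593 and chr11:99024190-99024439, both on the minus strand, and are printed along the gene.
Cdc20: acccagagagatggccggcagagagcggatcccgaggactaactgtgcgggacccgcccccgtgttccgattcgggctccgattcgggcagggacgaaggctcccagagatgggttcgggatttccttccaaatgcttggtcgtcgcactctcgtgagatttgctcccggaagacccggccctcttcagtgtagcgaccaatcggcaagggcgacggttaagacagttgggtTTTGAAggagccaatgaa
Top2a: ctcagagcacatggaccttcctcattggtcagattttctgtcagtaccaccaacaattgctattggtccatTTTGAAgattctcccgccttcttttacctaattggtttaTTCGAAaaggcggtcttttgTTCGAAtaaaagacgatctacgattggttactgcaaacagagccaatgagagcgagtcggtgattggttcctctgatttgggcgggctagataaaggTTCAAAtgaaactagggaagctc
Cdc20 has 1 match, 18 bases before the gene start. Top2a has 4, which begin 179, 140, 120 and 23 bases before it. Of the 20 risen mitosis genes, 3 had no entry in the table. Only risen members of a list of known mitosis genes were searched, so the share is no result about the libraries.

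The list of barrier transporters also holds other genes enriched in brain endothelium. Of its 26 tested members 9 fell and 0 rose: the carriers and pumps Slco1a4, Slco1c1, Abcb1a, Slc22a8, Slc6a6 and Slc19a3, and Bsg, Itm2a and Spock2, which are no transporters. The list had a median of -1.22. Their summed level was 1212 to 1438 FPKM in tumour and 4206 to 5393 in brain. Slco1a4, an organic anion carrier of brain capillaries, stood at 17.2 and 36.5 FPKM in tumour and 391.5, 276 and 253 in brain (log2 change -3.53, SE 0.54, adjusted p = 0.00287). Abcb1a, P-glycoprotein, which pumps drugs back to the blood, had 7.97 and 17.6 FPKM in tumour and 153, 88.9 and 80.0 in brain, and Slco1c1, the thyroxine carrier, 18.8 and 23.2 FPKM in tumour and 133, 117 and 117 in brain. Bsg, basigin, the chaperone of lactate carriers, went from 2682, 2727 and 2040.2 FPKM to 431 and 533 (log2 change -2.36, SE 0.32, adjusted p = 0.00169), and Itm2a and Spock2, both enriched in brain endothelium, changed by -3.05 and -2.79. Slc2a1, the glucose carrier, had 91.5 and 182 FPKM in tumour and 267, 358 and 267 in brain and did not pass (adjusted p = 0.0932). Mfsd2a, the lipid carrier that keeps vesicle traffic low, had 26.9 and 10.2 FPKM in tumour and 55.2, 24.4 and 51.3 in brain, and its tissues overlapped. The amino acid carrier Slc7a5 had 89.6 and 77.3 FPKM in tumour and 108, 126 and 121 in brain. Counts without each library were 2, 8, 9, 9 and 8, in the order used above.

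Of 13 tight junction genes 2 fell, against 2.82% of all tested genes. Cldn5, the main claudin of brain endothelium, fell from 423, 566 and 331 FPKM to 104 and 128 (log2 change -1.89, SE 0.35, adjusted p = 0.00829), and Lsr, angulin-1 of tricellular junctions, from 65.8, 38.2 and 65.3 to 11.0 and 13.6.  Ocln had 13.2 and 13.9 FPKM in tumour and 41.4, 74.2 and 38.3 in brain, below in both tumours but not called (adjusted p = 0.212), and the scaffold Tjp1 had 44.9 and 41.7 FPKM in tumour and 45.0, 34.3 and 38.3 in brain, with overlap. Jam3 was higher, at 99.0 and 64.5 FPKM in tumour and 27.4, 13.3 and 16.6 in brain, with an adjusted p of 0.0560. Neither Cldn5 nor Lsr was called without a tumour library.

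Caveolae and transcytosis genes, which carry cargo across the leaky vessel wall, gave 0 calls of 15, with 6 members above and 5 below brain in both tumours, patterns of 23% and 30.7% of all tested genes. Plvap, the diaphragm protein of leaky capillaries, was 5.03 and 5.72 FPKM in tumour and 1.37, 0 and 1.24 in brain (log2 change 1.87, adjusted p = 0.0629). Cav1, the caveolin of endothelium, was 50.9 and 40.9 FPKM in tumour and 113, 93.9 and 98.7 in brain (-1.14, adjusted p = 0.231).

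Endothelial identity genes lay lower in tumour. Of 29 genes, 25 were lower in both tumours than in each brain, a pattern of 30.7% of all tested genes. The test called 3 lower, against 2.82% of all tested genes, and the median change was -1.06. The 3 were Flt1, the decoy receptor of VEGF, at 22.7 and 28.9 FPKM in tumour and 144, 141 and 98.2 in brain (log2 change -2.25, SE 0.41, adjusted p = 0.00739), Tek, the receptor of angiopoietins, at 12.5 and 10.0 FPKM in tumour and 73.3, 51.2 and 50.1 in brain, and Gata2, a transcription factor. Cdh5, VE-cadherin, whose promoter drives the tag, had 18.98 and 20.2 FPKM in tumour and 56.4, 36.6 and 25.8 in brain (log2 change -0.91, adjusted p = 0.319). Pecam1 had 166 and 81.9 FPKM in tumour and 451, 181 and 346 in brain, and Kdr, the signalling VEGF receptor, 13.5 and 9.89 FPKM in tumour and 21.6, 17.4 and 17.7 in brain. Ets1 was the one member above brain in both tumours, at 78.7 and 68.7 FPKM in tumour and 51.5, 55.6 and 59.8 in brain. The sum of the list in tumour, given above, was 0.438 times that in brain, and its part in the falls of barrier genes was not tested. Leaving out each library gave 0, 0, 2, 2 and 3 falls, and the fit to the 5 knockout libraries alone gave 10.

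Targets and parts of Wnt/beta-catenin signalling fell in 4 of 21 cases and 0 rose. Nkd1, a feedback inhibitor, had 8.56 and 10.4 FPKM in tumour and 92.3, 67.4 and 98.5 in brain. Notum, an enzyme that inactivates Wnt ligands, had 0 in both tumour libraries and 9.18, 4.29 and 15.9 FPKM in brain. The transcription factors of the pathway fell too, with Lef1 at 17.1 and 20.6 FPKM in tumour and 64.1, 87.9 and 79.4 in brain. Tcf7 had 16.5 and 17.0 FPKM in tumour and 81.4, 38.4 and 50.8 in brain. Axin2, the usual readout of the pathway, had 5.37 and 10.00 FPKM in tumour and 43.5, 42.4 and 40.3 in brain and did not pass (adjusted p = 0.0731), nor did the receptor Fzd4 at 1.47 and 3.54 FPKM in tumour and 7.09, 13.3 and 12.1 in brain. The coactivator Ctnnb1 itself had 281 and 233 FPKM in tumour and 214, 401 and 215 in brain, with overlap. Without each library the falls numbered 0, 1, 2, 4 and 2.

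Arterial genes fell in 3 of 15 cases, against 2.82% of all tested genes. Mgp, matrix Gla protein, went from 313, 358 and 199 to 18.7 and 29.3 FPKM (log2 change -3.53, SE 0.87, adjusted p = 0.0306), and Tsc22d1 and the kinase Bmx fell as well. Gkn3, a marker of brain arteries, was 0 in both tumour libraries and 19.4, 24.8 and 10.9 FPKM in brain (adjusted p = 0.0735). Of 13 venous genes 2 fell, among them the carbonic anhydrase Car4, from 139, 152 and 105 to 7.77 and 20.8, and 0 fell under upper quartile scaling or without any 1 of the 5 libraries. Nr2f2, the transcription factor of veins, had 18.1 and 12.7 FPKM in tumour and 35.2, 47.8 and 50.7 in brain. Flow-induced factors Klf2 and Klf4 fell, Klf2 from 113, 94.8 and 125 to 20.7 and 17.5 (log2 change -2.47, SE 0.37, adjusted p = 0.00267) and Klf4 from 79.4, 60.3 and 75.2 to 13.1 and 9.82. With Egr1 they were 3 of 24 immediate early and stress genes. Fos, which also marks tissue handling, had 67.1 and 82.2 FPKM in tumour and 31.6, 60.9 and 60.5 in brain and did not pass. Jun had 48.3 and 62.5 FPKM in tumour and 51.2, 90.9 and 59.3 in brain, with overlap. Without each library 2, 2, 2, 3 and 2 of these and 1, 1, 1, 1 and 1 arterial genes fell.

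Genes listed for sprouting tip cells rose in 5 of 24 cases and 0 fell, with a median of 1.05. The endothelial identity sum was lower in tumour. The sums of mural, microglia and macrophage, and neural progenitor and glioma markers were higher there. The part of these other cells in the rises was not tested. Mcam, an adhesion molecule, was 546 and 434 FPKM in tumour and 16.3, 13.8 and 38.8 in brain (log2 change 4.49, SE 0.46, adjusted p = 0.000533). Apln, apelin, a peptide of tip cells, was 104 and 81.1 FPKM in tumour and 4.09, 6.30 and 3.92 in brain, and the actin bundler Fscn1 was 305 and 223 FPKM in tumour and 57.7, 115 and 83.9 in brain. Angpt2, the antagonist of Tek, had 17.5 and 16.8 FPKM in tumour and 0, 1.24 and 0.717 in brain (log2 change 3.54, SE 0.85, adjusted p = 0.0281). Esm1, a marker of tip cells, had 4.81 and 0.767 FPKM in tumour and 0, 1.17 and 0.338 in brain and Dll4, the Notch ligand of tip cells, 5.55 and 2.88 FPKM in tumour and 3.40, 11.8 and 5.07 in brain; neither passed. The list gave 1, 2, 2, 3 and 3 with each library left out.

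In the VEGF and angiopoietin list Angpt2 was thus opposite to its receptor Tek and to Flt1, the other 2 of 14 that passed. Without each library 0, 0, 0, 0 and 0 rose and 0, 0, 2, 2 and 2 fell. Vegfa was 7.36 and 36.9 FPKM in tumour and 18.1, 18.1 and 50.9 in brain, with overlap, and Pgf 11.7 and 9.53 FPKM in tumour and 3.88, 0 and 0 in brain (adjusted p = 0.110). The Notch list gave 0 calls of 15. Its smallest p was that of the ligand Jag2, at 2.37 and 4.74 FPKM in tumour and 12.8, 10.9 and 17.4 in brain (adjusted p = 0.114), and Notch1 was 12.4 and 35.2 FPKM in tumour and 8.76, 23.7 and 6.48 in brain.

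Matrix genes rose in 6 of 33 tested cases and 1 fell, against 5.57% and 2.82% of all tested genes. Col3a1, a fibrillar collagen, had 22.2 and 38.2 FPKM in tumour and 0, 0.0278 and 0.659 in brain, and Col18a1, the basement membrane collagen that yields endostatin, 48.0 and 37.6 FPKM in tumour and 2.24, 2.21 and 2.28 in brain (log2 change 3.74, SE 0.66, adjusted p = 0.00633). The protease Mmp2 had 27.2 and 37.2 FPKM in tumour and 2.70, 1.05 and 0 in brain. Timp1 rose and Timp2 fell, both inhibitors of such proteases, with Timp2 at 6.85 and 16.8 FPKM in tumour and 76.3, 138 and 71.8 in brain. The fall of Timp2 was lost under upper quartile scaling. The main vascular collagens did not pass, with Col4a1 at 25.4 and 17.7 FPKM in tumour and 17.1, 16.6 and 16.4 in brain. Col4a2 had 12.7 and 13.0 FPKM in tumour and 8.30, 10.1 and 12.4 in brain. Col3a1 and Col1a1 are also fibroblast markers, while Dpt of fibroblasts was 0 in all 5 libraries. The count of rises was 1, 1, 3, 3 and 3 with each library left out.

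Of 12 leukocyte adhesion genes Mcam alone rose, against 5.57% of all tested genes. Icam1 had 22.3 and 17.2 FPKM in tumour and 10.6, 7.67 and 3.02 in brain and Vcam1 26.8 and 16.9 FPKM in tumour and 21.8, 74.2 and 21.1 in brain. Sele and Selp, the selectins of inflamed endothelium, stayed under 2 FPKM in each library. Coagulation genes gave 0 calls of 17, with thrombomodulin, Thbd, at 0.484 and 5.21 FPKM in tumour and 22.5, 16.3 and 13.9 in brain (adjusted p = 0.0717) and tissue factor, F3, at 23.1 and 37.4 FPKM in tumour and 2.98, 14.8 and 5.95 in brain (adjusted p = 0.113).

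**Figure D4:**
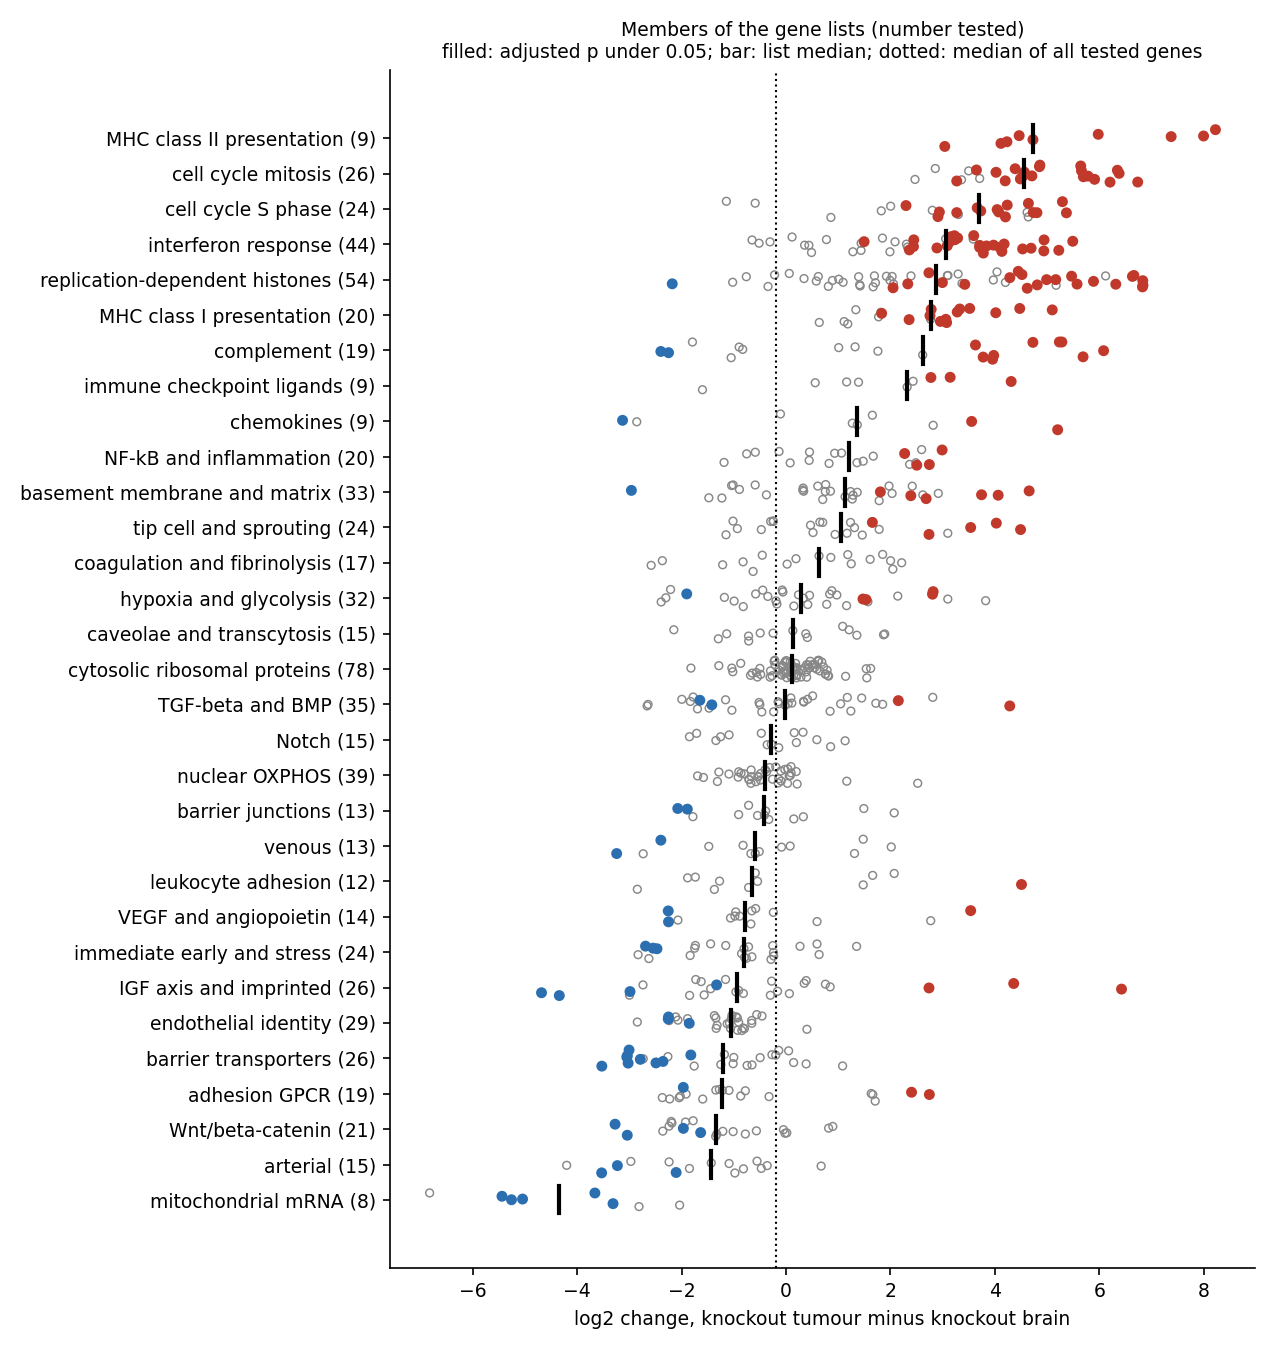
Log2 change of the tested members of each gene list, knockout tumour minus knockout brain, with the number tested in brackets. Filled points passed at adjusted p under 0.05 (red higher, blue lower), black bars are list medians and the dotted line is the median of all tested genes, -0.19.

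Hypoxia and glycolysis genes were mixed: 4 of 32 rose and 1 fell, against 5.57% and 2.82% of all tested genes. Car9, a surface enzyme induced by low oxygen, was 2.80 and 11.8 FPKM in tumour and 0 in all 3 brain libraries, and Ldha and Pgk1 of glycolysis rose, Ldha from 225, 222 and 172 to 498 and 654 FPKM (log2 change 1.47, SE 0.33, adjusted p = 0.0207). Hk2 rose from 1.26, 0.573 and 1.31 to 9.34 and 18.6. Epas1, the hypoxia factor HIF-2 alpha, fell from 331, 286 and 285 to 71.8 and 87.9 (log2 change -1.90, SE 0.31, adjusted p = 0.00374). Without each library 1, 0, 2, 3 and 1 rose. Car9 was 0 in all wild type tumours and brains tested, but its genotype difference did not pass.

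Of 35 genes of TGF-beta and BMP signalling 2 rose and 2 fell, against 5.57% and 2.82% of all tested genes. Vim, vimentin, was 1764 and 1687 FPKM in tumour and 508, 296 and 388 in brain, and Tgfbi, a secreted target of TGF-beta, 65.9 and 54.0 FPKM in tumour and 1.16, 1.68 and 4.21 in brain. The receptor Bmpr2 and the BMP target Id1 fell, Id1 from 200.4, 118 and 202 to 87.7 and 43.8, and both falls were lost under upper quartile scaling. The list median was -0.02 and changed sign with the scaling. Without each library 1, 1, 2, 2 and 2 rose and 0, 0, 0, 1 and 0 fell.

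Imprinted genes and the IGF axis moved in both directions, with 3 rises and 4 falls among 26. H19 and Plagl1, a zinc finger factor, rose, with Plagl1 at 118 and 68.6 FPKM in tumour and 3.26, 0.673 and 11.2 in brain. Meg3 and Rian, long RNAs of one imprinted cluster, fell, with Meg3 at 2.30 and 4.68 FPKM in tumour and 67.8, 99.6 and 97.3 in brain (log2 change -4.34, SE 0.75, adjusted p = 0.00545) and Rian at 4.11 and 15.3 FPKM in tumour and 202, 283 and 224 in brain. Snrpn and Gnas fell too. Igf2, the neighbour of H19, had 0.343 and 4.32 FPKM in tumour and 18.8, 18.7 and 13.7 in brain (adjusted p = 0.0764). Igfbp3 rose from 5.35, 6.73 and 11.1 to 68.9 and 44.1. Leaving out each library gave 1, 1, 2, 2 and 3 rises and 0, 2, 3, 2 and 2 falls.

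Messenger RNAs of the mitochondrial genome fell in 5 of 8 tested cases, with a median of -4.36. Their sum over 13 genes was 15.03 to 17.7 FPKM in tumour and 549.7 to 777 in brain. The cytochrome oxidase subunit mt-Co1 was 8.26 and 9.94 FPKM in tumour and 349, 327 and 321 in brain (log2 change -5.05, SE 0.68, adjusted p = 0.00162), and mt-Nd1 of complex I was 0 and 1.02 FPKM in tumour and 94.3, 41.1 and 57.8 in brain. Mt-Co2, mt-Co3, mt-Nd3 and mt-Nd4l were listed at 0 in all 5 libraries although every cell with mitochondria uses them, so a 0 in this list is not read as absence. These RNAs are translated inside mitochondria by other ribosomes than the tagged one. Without each library 2, 2, 2, 3 and 2 of them fell. Nuclear genes of oxidative phosphorylation gave 0 calls of 39 at a median of -0.40, and cytosolic ribosomal proteins 0 of 78 at 0.12.

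Other adhesion G protein-coupled receptors were read beside the missing one. Of 19 tested, 2 rose and 1 fell, against 5.57% and 2.82% of all tested genes. Adgra3 was 28.8 and 36.6 FPKM in tumour and 5.15, 2.96 and 4.13 in brain (log2 change 2.74, SE 0.51, adjusted p = 0.00801), and Adgrg6, a receptor of collagen and laminin, was 21.0 and 21.6 FPKM in tumour and 2.73, 4.38 and 2.73 in brain. Adgrf5, an endothelial and lung receptor, fell, at 16.5 and 12.8 FPKM in tumour and 69.7, 68.1 and 45.5 in brain (log2 change -1.97, SE 0.40, adjusted p = 0.0138). The latrophilins Adgrl1, Adgrl2 and Adgrl3, the nearest relatives of Adgrl4, did not pass, with changes of -0.87, -1.28 and -0.33. Without each library 0, 0, 1, 1 and 1 rose and 0, 0, 0, 0 and 1 fell.

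The same tissue contrast in wild type mice used none of these libraries as samples, though both share one estimate of the spread. Over the 14420 genes the wild type contrast called 3115 (21.6%). Of the 1210 genes called in knockouts, 98.1% had the same direction in wild type, against 78.8% of all tested genes, and 953 (78.8%) were called there in that direction, which is 30.6% of the wild type calls. Log2 changes of the genotypes correlated with Pearson r = 0.768 and Spearman rho = 0.734 across genes, which are not independent replicates. The list medians stood side by side as follows: the interferon median was 3.07 in knockout and 2.47 in wild type, mitosis 4.55 and 4.94, MHC class II 4.73 and 4.51, and barrier transporters -1.22 and -2.05.

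**Figure D5:**
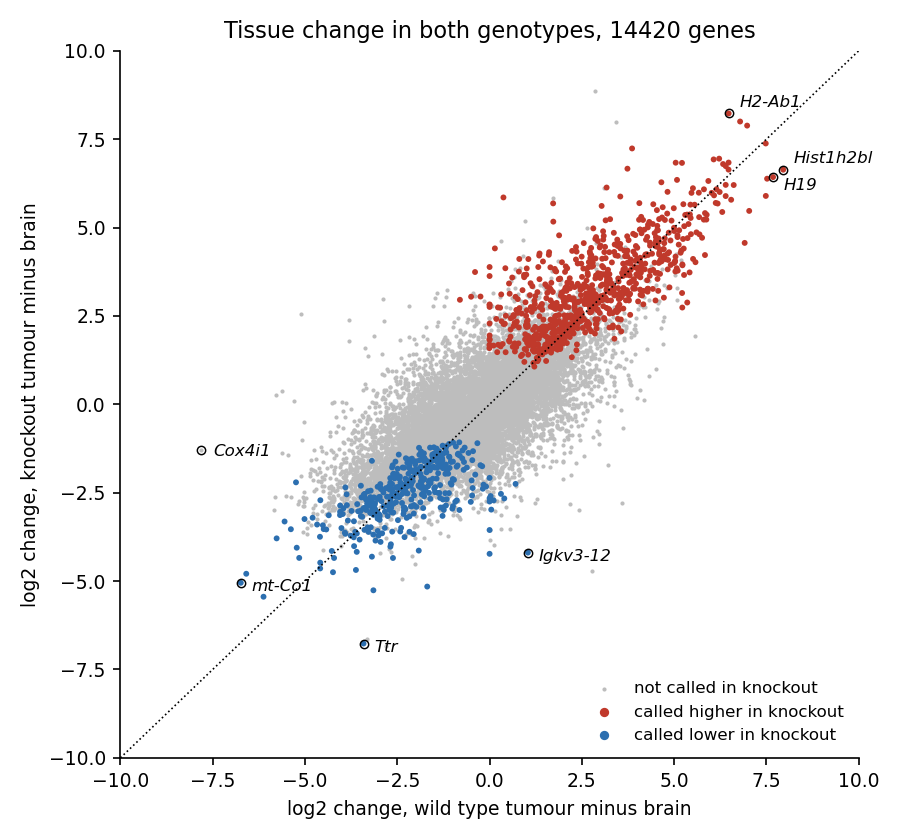
Log2 change of each gene in knockout mice against its change in wild type mice, both tumour minus brain, with the line of equal change dotted. Of the called genes 98.1% have the same direction in both genotypes, against 78.8% of all tested genes, and Cox4i1 is the one gene whose difference passed.

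A test of the difference between the genotypes called 1 of 14420 genes (0.00693%), with 482 at an unadjusted p under 0.05. The gene was Cox4i1, a subunit of cytochrome oxidase. It stood at 56.5 and 109.7 FPKM in tumour and 182, 338 and 118 in brain in knockouts, against 0, 0 and 0 FPKM in wild type tumours and 396, 173 and 163 in wild type brains, so the difference of the changes was 6.52 (SE 0.72, adjusted p = 0.0234). Within knockouts Cox4i1 did not pass (log2 change -1.29, adjusted p = 0.154). It lies on chromosome 8 within 119910360 to 124345722 of GRCm38.p6, where the wild type tumour replicates 1 and 3 have a value of 0 for 50 expressed neighbours in a row. Wild type tumour replicate 2 stands apart, with 8979 genes above 0, against 11782 to 15433 in the other 10 libraries, and 25.4% of 10903 expressed genes at 0. It supplies the third 0 of Cox4i1 and enters the spread. The knockout tumours had no run of 4 or more such neighbours on any chromosome. Slc7a5, Irf8, Cdt1 and Gins2 lie in this interval, and those zeros enter the spread used for their tests. Samd12 and Igkv3-12 fell in knockouts, had wild type changes of -1.69 and 1.04, and did not pass the test of the difference (adjusted p = 0.999 for both).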

How the data were processed

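Per the labels' protocols, tagged ribosomes were captured with anti-GFP beads from dissected tumour or brain, RNA with a RIN above 7 was kept, ribosomal RNA was removed and stranded libraries were made. The authors deposited FPKM values per gene and library; the submitters' processing notes name TopHat2 2.1.1, Cufflinks 2.2.1 and GRCm38. The annotation release, the use of strand and the counting of multiply mapped fragments were not given in these sources, so overlapping, antisense and near-identical genes are uncertain.

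Entries of a repeated symbol were summed, which left 45806 genes. For the 14420 genes at 1 FPKM or more in 2 of the 5 knockout libraries, log2(FPKM + 1) was fitted with limma 3.58.1 (R 4.3.3): 4 group means over all 11 libraries, variance trend, Benjamini-Hochberg adjustment over all tested genes, and a threshold of 0.05. Every adjusted p is from this fit. Fold changes on this scale understate those of low genes. The fit was also run on simulated data with the same spread of a gene in all 11 libraries. Uneven libraries such as wild type tumour replicate 2 are not covered by that run.

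Named genes were the 15 largest rises and 15 largest falls (mean of at least 5 FPKM in the higher group, no overlap, an official symbol), up to 6 members of each list by smallest p, and defining members. The comparison, members and lists were chosen with earlier results of these data known. A few further called members are named to complete a count. Replicate numbers follow accession order. Promoter windows came from the RefSeq table for GRCm38.p6.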

Additional observations from a re-analysis of the deposited data

Results flagged for a closer look

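Cox4i1 was singled out because its tissue change differed between the genotypes by a test of the difference itself: knockout minus wild type was 6.52 (log2, SE 0.72, limma adjusted p = 0.0234). The 3 wild type tumours were all listed at 0, as described above for this stretch of chromosome 8 in replicates 1 and 3. The other 0 is of wild type tumour replicate 2, where 25.4% of expressed genes were at 0. The part of those zeros in the difference was not tested.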

How the results depend on the processing

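Fewer than 4 libraries a group, unknown depth and 2 tumours limit every count. The 1210 calls between knockout tumour and brain became 2116 with quantile normalization, 4346 with library weights, 3258 with the 5 knockout libraries alone, 2908 with wild type tumours 2 and 3 left out of the spread and 272 when a change above 1 (log2) was required. Leaving out 1 library gave 195 to 638. Other settings (pseudocounts 0.1 and 0.5, no filter, a filter of 5 FPKM, upper quartile scaling, no variance trend, repeated entries by the highest) gave 815 to 1296. Upper quartile scaling moved the median of all tested genes from -0.19 to -0.05 and the share of calls that were higher from 66.4% to 75.4%; that share was 44.2% with library weights, 43.9% with the 5 knockout libraries alone and 43.4% without wild type tumours 2 and 3, where most calls were lower. The genotype difference, 1 gene, became 0 with quantile normalization, with no variance trend and with a required change of 1, 11 with library weights and 9 without wild type tumours 2 and 3; leaving out 1 library gave 0 to 14, the highest without wild type tumour 2. For Adgrl4, knockout minus wild type in tumour passed with library weights at -2.34 (limma adjusted p = 0.0191). Of 204 named genes, 143 passed between knockout tumour and brain. When a change above 1 was required 75 of these no longer passed, and with a pseudocount of 0.1 33 did not. Without brain replicates 1, 2 and 3 the numbers lost were 43, 31 and 41, and with library weights 0 were lost. Single genes that changed sign had not passed between knockout tumour and brain: Ctnnb1 (0.11 with upper quartile scaling, 0.039 with quantile normalization, 0.00094 with library weights, -0.20 to 0.25 without 1 library), P2ry12 (-0.017 and -0.00047 with pseudocounts 0.1 and 0.5, -0.60 to 0.62 without 1 library), and, without 1 library, Adgrl3 (-0.85 to 0.20), Ccne2 (-2.68 to 0.39), Ddx3y (-0.43 to 1.32), Ifnar1 (-0.996 to 0.074) and Vegfa (-1.67 to 0.51). The cause was not tested for any of these shifts. No paired analysis was run. The brain libraries are described as coming from healthy mice, with no injection stated, and the labels pair no tumour library with a brain library.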
